A study of Mus musculus with 7 samples.

Results

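The comparison described here sets induced pluripotent stem cells (iPSC) against mouse embryonic fibroblasts (MEF), both of wild-type (WT) genotype and of mouse strain 129. It rests on 3 of the 7 arrays of the series: the 2 arrays titled WT iPSC, which the labels call biological replicates, and the 1 array titled WT MEF. The other arrays hold 1 WT embryonic stem cell (ESC) sample, 2 samples of iPSC lacking Nanog and 1 sample of MEF lacking Nanog. They entered only where this is said. The study as a whole asked whether iPSC can be made without Nanog, and the WT arrays show how iPSC and fibroblasts differ when Nanog is intact. Whether this MEF sample was the source of these iPSC was not tested. RNA was hybridised to single-colour Affymetrix whole-transcript arrays. The culture medium of each sample is not given by the labels, which list ESC, 2i/LIF and MEF media, nor do they say whether the 2 WT iPSC arrays come from different lines or from cultures of 1 line.

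A fibroblast is a mesenchymal cell that secretes and pulls on collagen-rich matrix, and its identity is held by transcription factors such as Twist, Prrx1 and the Hox genes. A pluripotent cell instead grows as a tight epithelial-like colony, divides fast, and is held in its state by a network around Oct4 (Pou5f1), Sox2 and Nanog. Reprogramming has long been described as loss of the mesenchymal programme, gain of cell-cell junctions, and then activation of the resident pluripotency genes.

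All 22180 genes with a single symbol were tested. Levels are log2 of the deposited intensity, and a difference is the mean of the 2 WT iPSC arrays minus the WT MEF array. Calls are at an adjusted p under 0.05 in limma. The WT MEF group has 1 array and therefore no spread of its own, so the error comes from the 2 iPSC pairs and the fibroblast array was assumed to vary like them. By this test 7236 genes, 32.6% of those tested, differed. WT iPSC were higher for 3810 genes, which is 17.2%, and lower for 3426 genes, which is 15.4%. At least 2-fold differences made up 1621 of the higher and 1726 of the lower calls, and at least 4-fold differences 449 and 497. The median difference over all genes was 0.00.

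**Figure D1:**
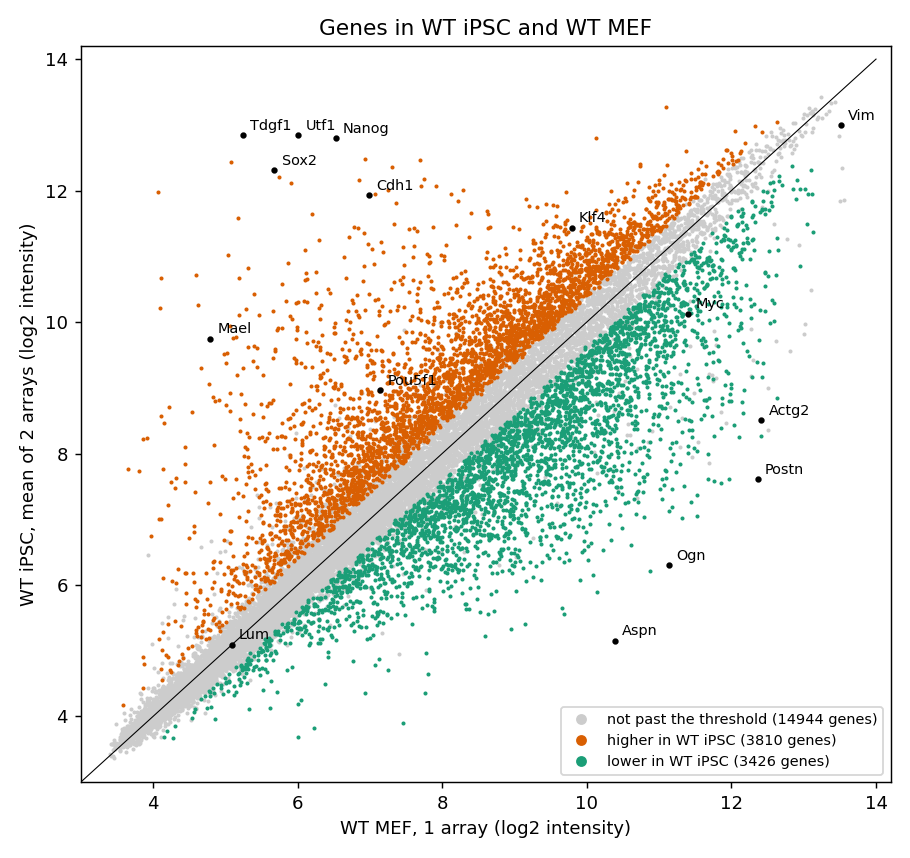
Each point is 1 of 22180 genes, with its log2 intensity on the WT MEF array on the x axis and the mean of the 2 WT iPSC arrays on the y axis. The line marks equal levels, and colours mark the 3810 genes called higher and the 3426 called lower in WT iPSC. Tdgf1, Utf1, Sox2 and Nanog lie at the upper left, Aspn, Ogn and Postn at the lower right, and Lum sits on the line near the bottom.

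A yardstick for background was taken from 1390 olfactory and vomeronasal receptor genes, whose 95th percentile lay between 6.30 and 6.50 on the 7 arrays. Between 61.0% and 63.7% of genes lay above it. Where every array on the dimmer side was under this yardstick, the fold is a lower bound, computed against the yardstick and written as "at least". Of 42 fibroblast markers, 41 were above this yardstick on the WT MEF array, with a median level of 11.99. Col1a1 was at 12.62, Thy1 at 11.73 and Vim at 13.52 there. The exception was Lum, a small matrix proteoglycan of fibroblasts, at 5.09, and Dcn, its relative, was at 7.99. On the MEF array lacking Nanog, Lum was at 10.60 and Dcn at 12.19.

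The 2 WT iPSC arrays were not alike, and many of the fibroblast genes below differ between them. They differed by more than 2-fold at 350 genes, against 4 genes for the 2 iPSC arrays lacking Nanog, and the standard deviation of the difference was 0.32 against 0.15. Replicate 1 was the higher array at 280 of the 350 genes. At 223 of those 280 the WT MEF array was itself more than 2-fold above replicate 2, and at 221 the WT ESC array was also above replicate 2. At 62 of the 280 replicate 1 was above WT MEF as well. The 280 genes were picked for a low replicate 2, which by itself raises the counts of arrays above it. The genes furthest apart were Ppbp, a platelet chemokine (10.39 in replicate 1, 6.55 in replicate 2, 11.93 in WT MEF), Lox, a collagen cross-linking enzyme (11.59, 8.04 and 13.00), Tnfrsf23, a decoy receptor (9.91, 6.45 and 11.53), and Cdh11, the cadherin of mesenchymal cells (10.71, 7.27 and 12.50). In these 4, replicate 1 lay nearer to the fibroblast array than to the other iPSC array on the log2 scale, though not on the linear scale used below. Grem1, a secreted BMP antagonist, went further: replicate 1 was at 10.25, above WT MEF at 9.82, with replicate 2 at 7.14. None of these 5 passed the test, their adjusted p-values lying at 0.15 for Ppbp, 0.16 for Lox, 0.13 for Tnfrsf23, 0.11 for Cdh11 and 0.56 for Grem1 (limma). Over 32 fibroblast markers at least 4-fold brighter in WT MEF than in replicate 2, the median level of replicate 1 on the linear scale stood 14.7% of the way from replicate 2 to WT MEF, with a range of 2.07% to 97.4%. For the WT ESC array the median was 3.95%. Replicate 2 both picked these markers and set the base of the scale, which can raise both percentages. Whether the level in replicate 1 comes from fibroblasts in the culture or from the stem cells themselves was not tested, and in bulk RNA more cells of a type and more RNA per cell cannot be told apart.

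The transcription factors of the pluripotency network were higher in WT iPSC almost throughout. Of 28 measured, 24 were higher, 2 lower and 2 did not pass the test, with a median difference of 2.77 against 0.00 over all genes. Sox2, the partner of Oct4, was at 12.30 and 12.32 on the 2 WT iPSC arrays and at 5.68, under background, in WT MEF, at least 57.9-fold higher (difference 6.63, SE 0.11, adjusted p = 8.69e-05, limma). Nanog was at 12.84 and 12.76 against 6.53, a 77.2-fold difference (6.27, SE 0.11, adjusted p = 9.60e-05). Utf1, a chromatin-bound factor of undifferentiated cells, was at 12.75 and 12.93 against 6.01, at least 83.6-fold higher. Nr0b1 (Dax1), an orphan nuclear receptor, was at 12.07 and 12.33 against 5.74, at least 53.7-fold higher. For these 4 genes the 2 stem cell arrays lay within 0.3 log2 of each other and far above the fibroblast array.

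Further factors of the naive network were higher as well. Tfcp2l1, a target of LIF signalling, was at 12.19 and 12.12 against 6.84, a 39.7-fold difference. Zfp42 (Rex1), a classical marker of the naive state, was at 10.47 and 10.39 against 5.39, at least 15.7-fold higher. Sall4, a zinc finger factor, was 18.4-fold higher and Nr5a2, a nuclear receptor that can stand in for Oct4, at least 8.63-fold. Esrrb was at 9.41 and 9.05 against 6.35, at least 6.84-fold higher, and Prdm14, a repressor of differentiation, at 9.59 and 8.79 against 6.32, at least 6.65-fold. Pou5f1 itself gave a small difference, at 8.82 and 9.10 against 7.15, or 3.52-fold (adjusted p = 0.0042, limma), and its level on the WT ESC array was 8.40.

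Some factors were already bright in the fibroblasts. Klf4, a Krüppel-like factor used in reprogramming, was at 11.56 and 11.31 against 9.79, a 3.12-fold difference. Klf5 was 4.79-fold and Tbx3, a T-box factor, 4.52-fold higher, from fibroblast levels of 9.71 and 9.58. Myc, which drives growth and is part of the usual reprogramming mix, went the other way, at 10.10 and 10.15 against 11.40 (2.42-fold lower, adjusted p = 0.0016, limma), whereas its relative Mycn was at 9.13 and 9.51 against 6.20, at least 7.29-fold higher. Stat3, the effector of LIF, was 1.51-fold lower. The 2 factors that did not pass were Thap11 (difference 0.09) and Max (0.18).

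Among 27 stem cell effectors and markers 21 were higher, 1 was lower and 5 did not pass, with a median of 3.36. Tdgf1 (Cripto), the co-receptor of Nodal, was at 12.85 and 12.83 against 5.24, at least 83.5-fold higher (difference 7.60, SE 0.11, adjusted p = 8.69e-05, limma). Dppa2, a chromatin regulator, was at 12.26 and 11.97 against 5.91, at least 50.5-fold higher, and its partner Dppa4 at least 9.47-fold. Fbxo15, an F-box protein first used to select iPSC, was at 10.95 and 10.70 against 5.31, at least 20.7-fold higher. L1td1, an RNA-binding protein, Alpl, the alkaline phosphatase stained in colonies, and Lin28a, which blocks let-7 maturation, differed at least 10.8-fold, 14.1-fold and 9.25-fold. Nes, an intermediate filament of progenitors, was the member that was lower, at 8.44 and 8.29 against 10.34. Dppa3 (0.68, adjusted p = 0.091, limma), Dppa5a (0.05), Lin28b (0.82), Fut4 (-0.34) and Prom1 (0.51) did not pass.

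The widest gaps of all also included zinc finger genes of little-studied function. Zfp640 was at 12.07 and 11.89 against 4.08, the largest difference of any gene at 7.90, and Zfp981 at 12.39 and 12.47 against 5.08. Rex2, of the same kind, was at 10.95 and 11.09 against 5.04. Gm364 was at 10.79 and 10.54 in WT iPSC, 4.11 in WT MEF and 5.15 on the WT ESC array, so its level was not shared with the other pluripotent sample. Over all 370 genes with a Zfp symbol, a class looked at after its values were seen, 30.3% were higher and 10.3% lower.

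In the signalling genes of the LIF, FGF and Nodal pathways, 14 of 30 were higher and 9 lower. Fgf4, the FGF that stem cells make for themselves, was at 11.96 and 12.04 against 7.25 (26.9-fold), and Gdf3, a TGF-beta family ligand, at least 14.4-fold higher. Lif was 2.10-fold lower, Fgf2 3.65-fold lower, and Furin, a protease that cuts TGF-beta family precursors, 4.02-fold lower.

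Junction genes of epithelia were higher where they passed. Of 29 measured, 16 were higher, 0 lower and 13 did not pass. Cdh1 (E-cadherin), which holds the colony together, was at 11.75 and 12.11 against 6.99, a 30.6-fold difference (4.94, SE 0.17, adjusted p = 2.18e-04, limma). Epcam, an adhesion molecule of epithelia, was at 10.43 and 10.71 against 5.79, at least 17.4-fold higher. The membrane protease inhibitors Spint1 and Spint2 were 10.2-fold and 9.66-fold higher and the protease St14 9.38-fold. Grhl2, an epithelial transcription factor, was at least 4.53-fold higher, the desmosomal cadherin Dsg2 at least 3.46-fold, and the tight junction proteins Cldn4 and Cldn6 by 2.68 and 2.51 on the log2 scale. Dsg2 has 2 probe sets, of which the dimmer gave a difference of -0.25. The keratin pair Krt8 and Krt18 separated the 2 iPSC arrays: Krt8 was at 9.11 and 10.87 against 7.96, and Krt18 at 8.02 and 10.07 against 7.69. Neither passed (adjusted p = 0.086 and 0.28, limma). Here replicate 2 was the brighter array, and replicate 1 was the brighter for only 2 of the 29 junction genes.

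**Figure D2:**
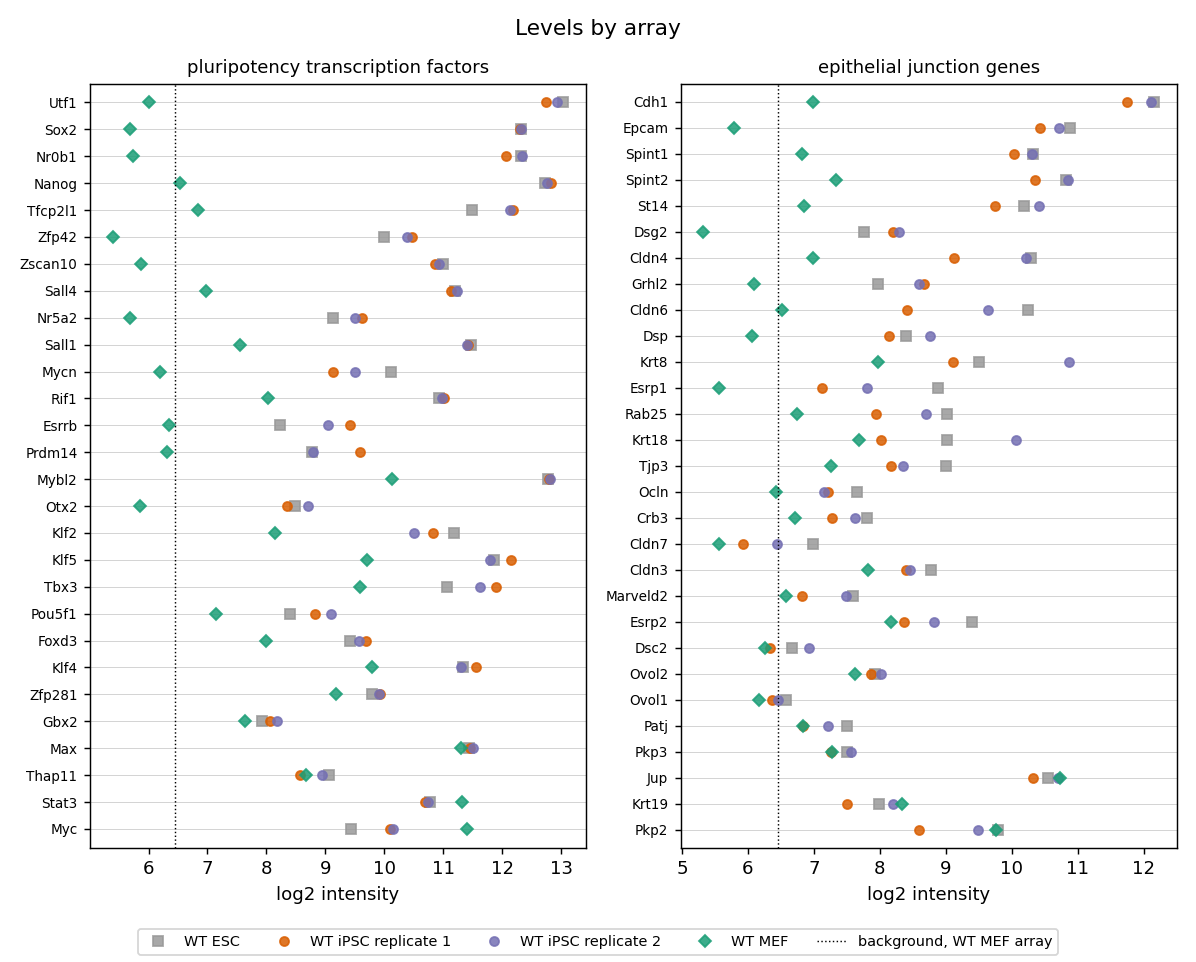
Log2 intensity (x axis) of each pluripotency transcription factor and each epithelial junction gene (rows, ordered by difference) on the WT ESC, WT iPSC and WT MEF arrays, 1 marker per array. The dotted line is the background yardstick of the WT MEF array. Both iPSC arrays sit to the right of the fibroblast array for most factors, with Myc and Stat3 to its left.

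Genes of the fibroblast programme were lower in WT iPSC. Of 32 mesenchymal transcription factors 28 were lower and 0 higher (median -2.04), and of 42 fibroblast markers 26 were lower, 0 higher and 16 did not pass (median -2.48). Without WT iPSC replicate 1 the lower count for the fibroblast markers was 39, and without replicate 2 it was 38. With only the 3 WT arrays in the fit it was 18, as it was without either iPSC replicate lacking Nanog, and with limma's trend and robust settings it was 15. Among the members and matrix genes named in the text, Postn, Snai2, Thy1, Col1a2, Col12a1 and P4ha3 did not pass with only the 3 WT arrays, nor with the trend and robust settings. Pdgfrb, Ddr2, Col8a1, Loxl1, Tbx15 and the contractile gene Actg2 were also lost with the trend and robust settings. Vim was lost with only the 3 WT arrays and with quantile normalization. The median difference was -1.80 for replicate 1 and -3.15 for replicate 2, and replicate 1 was the higher iPSC array for 41 of 42 markers.

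Among the mesenchymal factors, Twist2 was at 6.78 and 5.91 against 9.69, a 10.1-fold difference (adjusted p = 0.0027, limma). Runx1, a Runt-family factor, was at 8.10 and 8.02 against 10.84 (6.89-fold), with the 2 iPSC arrays close together. Tbx15, a T-box factor of limb and skin mesenchyme, was at 8.24 and 6.59 against 10.69 (9.68-fold). Snai2 (Slug), a repressor of E-cadherin, was at 9.85 and 7.76 in WT iPSC, 9.16-fold below WT MEF (adjusted p = 0.036, limma; lost also with the offset of 32), and its relative Snai1 was 4.48-fold lower. Foxc2, Nfix and Fosl2, an AP-1 subunit, were 7.97-fold, 5.42-fold and 5.08-fold lower. Prrx1, at 10.01 and 7.24 against 11.86, did not pass (adjusted p = 0.080, limma), nor did Osr1 (-2.79, adjusted p = 0.051), Osr2 (0.41) and Barx1 (-0.11). Of 36 Hox genes, which record position along the body, 26 were lower and 0 higher. Hoxc6 was at 7.15 and 6.18 against 9.96 (9.86-fold), Hoxb9 was 6.52-fold lower and Hoxa5 at least 6.14-fold.

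Among the genes lowest in WT iPSC relative to WT MEF were several that encode secreted matrix proteins. Aspn (asporin), a leucine-rich proteoglycan, was at 5.69 and 4.61 against 10.39, at least 15.9-fold lower (-5.24, SE 0.44, adjusted p = 0.0015, limma). Ogn (mimecan), of the same family, was at 6.95 and 5.65 against 11.14, and Fbln5, an elastic fibre protein, at 8.48 and 6.74 against 11.97, 28.6-fold and 20.6-fold lower. Postn (periostin) was at 9.09 and 6.13 against 12.36, a mean difference of 26.9-fold (adjusted p = 0.031, limma) with the iPSC arrays 2.97 log2 apart, and this call was lost with only the 3 WT arrays. Map3k7cl, at 6.39 and 6.04 against 10.88, and Cdh10, at 5.43 and 5.68 against 9.68, were low on both iPSC arrays alike.

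Collagens followed a mixed course: of 44, 20 were lower, 1 higher and 23 did not pass. Col8a1 was at 8.52 and 6.64 against 11.76 (18.1-fold lower), Col12a1 at 9.62 and 6.92 against 12.41 (17.6-fold), and Col1a2, a chain of type I collagen, at 9.92 and 8.02 against 12.18 (9.25-fold). Col1a1, the other chain, was at 10.77 and 8.64 against 12.62 and did not pass (adjusted p = 0.050, limma). Col18a1, a basement membrane collagen, was the member that was higher, 2.47-fold. Of 20 genes that process and cross-link collagen 13 were lower and 0 higher, among them the prolyl hydroxylase P4ha3 (11.0-fold) and the cross-linking enzyme Loxl1 (9.60-fold). Matrix proteases and inhibitors gave 18 lower and 1 higher of 28, with Adamts5 at least 13.3-fold lower. The receptor tyrosine kinase Pdgfrb, a defining fibroblast receptor, was at 9.39 and 7.48 against 12.04 (12.2-fold, adjusted p = 0.021), and the collagen receptor Ddr2 was 11.0-fold lower. Vim and Fn1 differed less than these: Vim was at 13.10 and 12.89 against 13.52 (1.43-fold lower), and Fn1 (-0.65) did not pass.

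**Figure D3:**
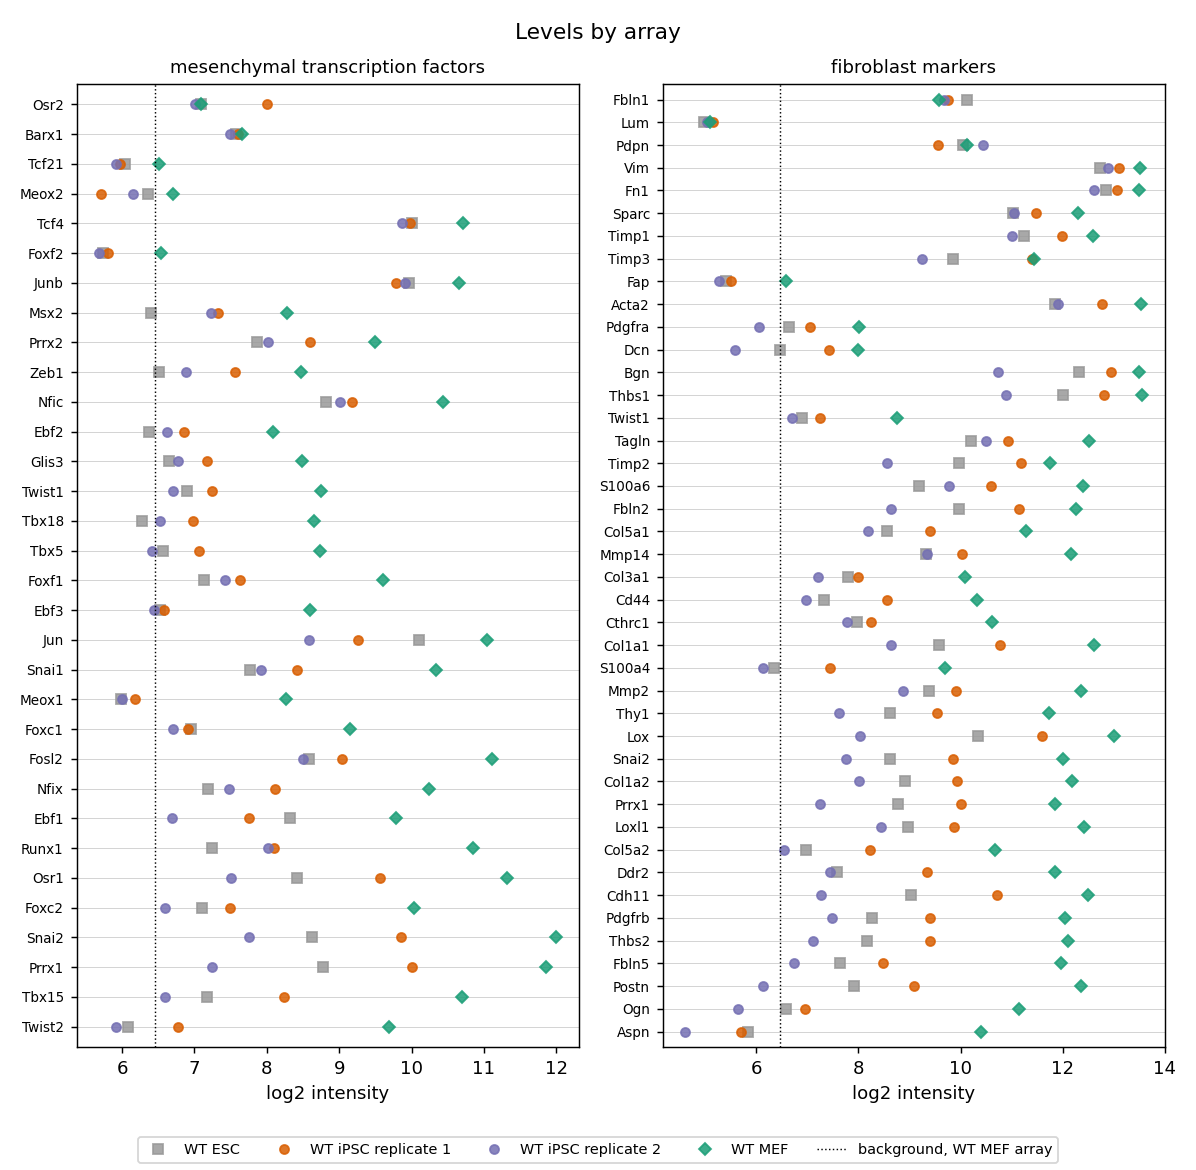
Log2 intensity (x axis) of each mesenchymal transcription factor and fibroblast marker (rows, ordered by difference) on the WT ESC, WT iPSC and WT MEF arrays, 1 marker per array, with the background yardstick of the WT MEF array dotted. WT iPSC replicate 1 is brighter than replicate 2 for 41 of the 42 markers, and Lum is at background on all 4 arrays.

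Contractile and adhesion genes were lower as well. Of 25 smooth muscle and actin contractile genes 24 were lower and 0 higher, with medians of -1.58 for replicate 1 and -1.61 for replicate 2. Actg2, a smooth muscle actin, was at 9.47 and 7.54 against 12.41 (-3.91), Cnn1 (calponin) 8.40-fold lower, and Tpm2, a tropomyosin, at 7.64 and 7.59 against 10.46 (7.18-fold). Integrins gave 10 lower and 2 higher of 18. Itgb3, of the vitronectin receptor, was 7.92-fold lower, and the laminin receptor chains Itga6 and Itgb4 were 1.70-fold and 1.59-fold higher. The call for Itga6 was lost with only the 3 WT arrays. Of 22 YAP/TEAD targets and caveola genes 16 were lower and 1 higher, with Ankrd1 10.2-fold and Cavin2 10.1-fold lower. The call for Ankrd1 was lost with only the 3 WT arrays, with the offset of 32 and with the trend and robust settings. The YAP/TEAD and caveola list differed more between the arrays (-1.57 and -2.22).

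Receptors and ligands of growth factor pathways were lower more often than higher. Of 25 growth factor receptors and IGF genes, 16 were lower and 3 higher. Flt1, Egfr and Pdgfrb were lower, and Erbb3, a neuregulin receptor, was at 9.82 and 9.62 against 6.21, at least 9.59-fold higher. Of 20 TGF-beta genes 12 were lower and 1 higher, led by the latent TGF-beta binding proteins Ltbp2 (10.5-fold) and Ltbp1 (8.55-fold), while Ltbp4 was 3.03-fold higher. Of 22 BMP genes 12 were lower and 1 higher. With only the 3 WT arrays, or without either iPSC replicate lacking Nanog, the lower count was 7 for the TGF-beta, the BMP and the Wnt list alike. Ltbp2 did not pass in those fits, nor with quantile normalization, the offset of 32 or the trend and robust settings. Of 34 Wnt genes 9 were higher and 11 lower, the non-canonical ligand Wnt5a being 7.91-fold lower and the repressor Tcf7l1 2.74-fold higher.

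Chromatin enzymes moved in both directions. Tet1, which oxidises 5-methylcytosine, was at 11.95 on both WT iPSC arrays against 7.08, a 29.4-fold difference (4.88, adjusted p = 1.04e-04, limma), and Tet3 was 2.12-fold lower. Dnmt3l, the cofactor of de novo methylation, was at 10.85 and 10.65 against 6.12, at least 19.6-fold higher, and the enzyme Dnmt3b at 10.05 and 10.63 against 7.11 (9.41-fold). In this list 8 of 15 were higher and 3 lower. Of 28 Polycomb and histone methylation genes 19 were higher and 2 lower: Cbx7, Jarid2 and Mtf2 were 9.47-fold, 8.09-fold and 5.11-fold higher, and Bmi1 and Cbx8, alternative PRC1 subunits, were 1.41-fold and 1.35-fold lower, calls that were lost with only the 3 WT arrays. Among 33 remodelling subunits 9 were higher and 3 lower, with Chd7 4.13-fold higher and Chd3 and Smarca2 4.32-fold and 3.55-fold lower.

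Division genes were higher almost without exception. Of 32 genes of G1/S and DNA replication 29 were higher and 0 lower (median 1.11), and of 31 genes of G2/M and mitosis 28 were higher and 0 lower (median 1.06). Mcm10, an initiation factor, was 4.70-fold, the origin subunit Orc1 4.38-fold, and the checkpoint kinase Bub1b 3.65-fold higher. D-type cyclins, CDK inhibitors and p53 targets were split, 8 higher and 13 lower of 29. Ccnd2 (cyclin D2) was 4.93-fold lower, a call lost with the trend and robust settings. Terc, the telomerase RNA, was at 13.27 and 13.26 against 11.10 and Tert was higher by 0.58. Both were singled out after their values were seen.

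In metabolism, the neuronal-type glucose transporter Slc2a3 was at 11.97 and 12.15 against 7.71 (20.5-fold). Glycolysis and hypoxia genes as a list gave 9 higher and 3 lower of 27. The glycine cleavage enzymes Gldc and Amt were 16.8-fold and 9.63-fold higher and the arginine transporter Slc7a3 17.8-fold, within a list of 18 with 8 higher and 3 lower. Of 85 oxidative phosphorylation subunits 17 were higher and 0 lower, led by Cox7a1 (7.29-fold) and Cox6b2 (7.24-fold), and of 63 ribosomal protein genes 15 were higher and 0 lower. The first share, 17 of 85, is close to the 17.2% of all genes that were higher. Lysosomal genes gave 15 lower and 3 higher of 24, and cholesterol and fatty acid synthesis 5 lower and 0 higher of 19. Antigen presentation gave 4 lower and 1 higher of 18, and interferon-stimulated genes 9 lower and 3 higher of 32. B2m was 3.41-fold lower, a call lost with the trend and robust settings. With only the 3 WT arrays, or without either iPSC replicate lacking Nanog, 7 oxidative phosphorylation and 7 ribosomal protein genes were higher and 9 lysosomal genes lower. Without WT iPSC replicate 1, 27 oxidative phosphorylation, 25 ribosomal protein and 15 glycolysis and hypoxia genes were higher, and without replicate 2, 11 cholesterol and fatty acid synthesis genes were lower.

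**Figure D4:**
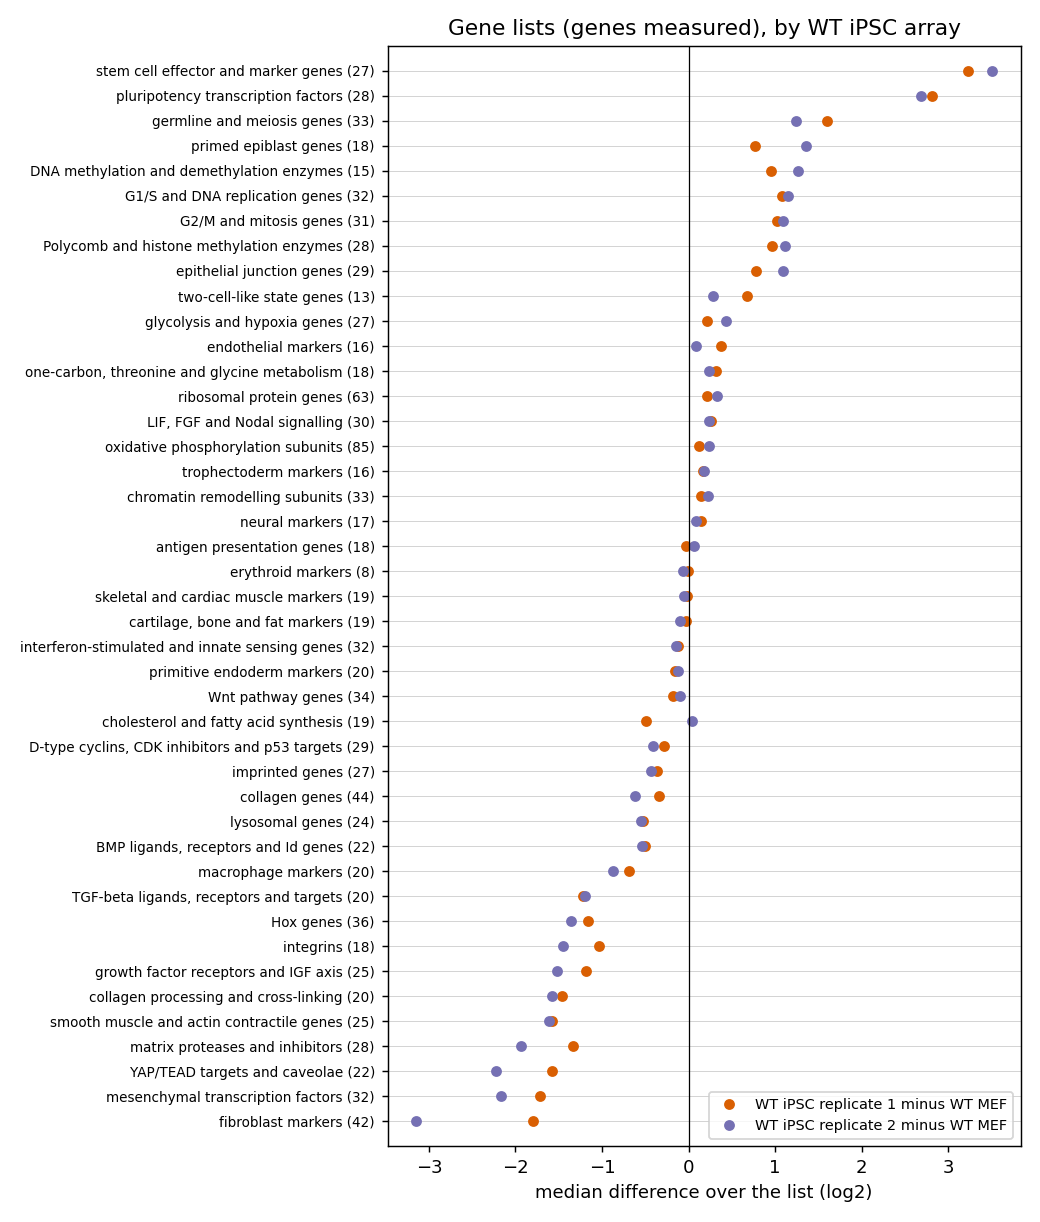
Median log2 difference from WT MEF over each gene list (rows, with the number of genes measured), for WT iPSC replicate 1 and replicate 2 separately. Stem cell effectors and pluripotency factors stand at the top, and fibroblast markers at the bottom, where the arrays differ most (-1.80 and -3.15).

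Germline and meiosis genes were higher in WT iPSC as a group. Of 33 measured, 24 were higher and 0 lower (median 1.24). With only the 3 WT arrays 18 were higher. Many of these genes were dim: 22 of the 33 were above background on both WT iPSC arrays, and 9 on the WT MEF array. Mael, of the piRNA pathway, was at 9.57 and 9.93 against 4.79, at least 9.81-fold higher (adjusted p = 2.18e-04, limma). Dazl, an RNA-binding protein of germ cells, was at 8.61 and 9.24 against 5.07, at least 5.54-fold higher, and Kit, the receptor of stem cell factor, 20.4-fold. Of 13 genes of the two-cell-like state 3 were higher, 1 lower and 9 did not pass. The higher count was 0 with only the 3 WT arrays or without either iPSC replicate lacking Nanog, 5 without WT iPSC replicate 1 and 9 without replicate 2. Zscan4e was at 11.28 and 9.23 against 4.62 and Zscan4c at 9.14 and 7.25 against 5.55, and on the WT ESC array they were at 7.75 and 6.15. Members of the Zscan4 family are near-identical copies, so their signals may be shared.

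The region before each start site was searched in 16918 genes with a RefSeq promoter entry (build GRCm38.p6; 250 bases before to 50 after the start). CACGTG, an E-box read the same on both strands and bound by MAX and its partners, was present in 11 of 28 germline promoters (39.3%) against 8.20% of all. The CArG box of serum response factor was in 4 of 21 contractile gene promoters against 1.46% of all, and CATTCC, the TEAD motif, in 9 of them (42.9%) against 13.5%. The octamer ATGCAAAT, read on both strands, was in 1.64% of promoters of all genes called higher (49 of 2991) and in 4.20% of those at least 4-fold higher (14 of 333), against 1.70% of all. The 26 fibroblast marker promoters held a median of 6.5 CpG against 13 over all, and TATAAA in 30.8% against 12.9%. Genes called lower did not share this: their median was 20 CpG, with TATAAA in 8.76%. For those at least 4-fold lower the values were 17.5 and 12.9%. No overlap between different motifs was looked for; these are letter matches, and binding was not measured. The 250 bases before the start are shown, 5′ to 3′ on the gene's strand with the match in capitals, for the members that passed with the largest differences: Mael and Stag3 (a meiotic cohesin, difference 3.72) for the E-box, Myl9 (myosin light chain, -2.56) and Cnn2 (calponin 2, -1.73) for the CArG box, and Zfp42 for the octamer.
Mael, chr1:166238745-166238994, minus strand: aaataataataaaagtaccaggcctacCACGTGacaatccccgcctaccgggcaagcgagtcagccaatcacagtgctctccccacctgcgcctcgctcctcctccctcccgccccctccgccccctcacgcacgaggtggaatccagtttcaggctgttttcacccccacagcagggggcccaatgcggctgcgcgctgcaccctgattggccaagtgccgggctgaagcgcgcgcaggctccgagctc
Stag3, chr5:138280259-138280508, plus strand: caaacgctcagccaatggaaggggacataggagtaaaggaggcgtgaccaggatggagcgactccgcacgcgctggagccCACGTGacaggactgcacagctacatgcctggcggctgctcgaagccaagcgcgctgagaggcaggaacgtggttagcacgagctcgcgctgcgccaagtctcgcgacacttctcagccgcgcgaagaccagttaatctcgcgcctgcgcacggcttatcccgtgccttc
Myl9, chr2:156775214-156775463, plus strand: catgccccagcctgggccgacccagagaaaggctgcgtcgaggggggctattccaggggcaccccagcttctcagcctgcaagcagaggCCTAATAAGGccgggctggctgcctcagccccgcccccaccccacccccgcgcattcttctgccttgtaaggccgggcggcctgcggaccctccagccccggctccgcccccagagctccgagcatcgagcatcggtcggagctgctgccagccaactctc
Cnn2, chr10:79988350-79988599, plus strand: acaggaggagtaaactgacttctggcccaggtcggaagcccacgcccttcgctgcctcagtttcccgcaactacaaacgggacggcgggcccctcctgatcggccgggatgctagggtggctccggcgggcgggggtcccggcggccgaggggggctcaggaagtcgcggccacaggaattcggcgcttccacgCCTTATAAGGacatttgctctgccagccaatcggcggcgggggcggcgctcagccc
Zfp42, chr8:43307010-43307259, minus strand: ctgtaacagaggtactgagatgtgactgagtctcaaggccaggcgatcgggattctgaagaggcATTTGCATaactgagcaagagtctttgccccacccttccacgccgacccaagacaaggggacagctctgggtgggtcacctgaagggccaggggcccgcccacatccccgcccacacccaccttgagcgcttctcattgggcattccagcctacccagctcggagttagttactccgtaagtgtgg

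Probe sets for miRNA genes read the hairpin or its primary transcript, not the mature miRNA, and many levels are under background. miRNA genes fell outside the rule for named genes, so those given here were chosen after their values were seen. Of 478 measured, 165 were above background on at least 1 of the 3 arrays, 41 were called higher (8.58%) and 62 lower (13.0%), against 17.2% and 15.4% of all genes. Of the 103 called, 56 were above background on at least 1 of the 3 arrays. For 87 of the 103 called genes RefSeq (GRCm38.p6) gave a mature sequence. Those below carry the main families, with the seed, bases 2 to 8, in capitals. They come from genes higher in WT iPSC for miR-290a, miR-20a, miR-106b, miR-18a, miR-18b, miR-363 and miR-92a, and lower for let-7a, let-7b, let-7e, miR-181b and miR-125b.
miR-290a-3p: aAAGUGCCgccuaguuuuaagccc
miR-20a-5p: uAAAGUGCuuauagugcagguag
miR-106b-5p: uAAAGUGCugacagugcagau
miR-18a-5p: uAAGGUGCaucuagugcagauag
miR-18b-5p: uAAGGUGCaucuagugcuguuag
miR-363-3p: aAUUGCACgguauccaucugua
miR-92a-3p: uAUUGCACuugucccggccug
let-7a-5p: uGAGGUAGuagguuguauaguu
let-7b-5p: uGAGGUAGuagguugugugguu
let-7e-5p: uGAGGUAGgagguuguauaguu
miR-181b-5p: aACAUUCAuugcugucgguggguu
miR-125b-5p: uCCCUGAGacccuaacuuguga

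miR-20a-5p and miR-106b-5p share the seed AAAGUGC, which in miR-290a-3p starts at base 1 rather than at base 2. miR-18a-5p and miR-18b-5p share AAGGUGC, miR-363-3p and miR-92a-3p share AUUGCAC, and the let-7 members share GAGGUAG. Members of 1 seed group did not all go the same way: miR-181d-5p has the seed of miR-181b-5p, ACAUUCA, and its gene Mir181d was higher by 0.87.

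Mir290a, first of the cluster that marks mouse ESC, was at 8.82 and 8.09 against 4.15, at least 4.01-fold higher (4.30, adjusted p = 9.42e-04, limma). Mir18, of the cluster that also holds Mir17, was at 8.06 and 7.58 against 6.33, at least 2.57-fold higher, and Mir106b at 7.57 and 7.38 against 6.78. Mir19a, Mir20a, Mir363 and Mir18b passed with differences of 1.89, 0.91, 1.97 and 1.41, but their mean iPSC levels lay under background. Mir302c, of a cluster linked to primed cells, gave a difference of 1.29 and did not pass (adjusted p = 0.099), its arrays lying 1.15 log2 apart. On the fibroblast side Mir145a was at 4.05 and 3.76 against 7.46, at least 2.08-fold lower, and its neighbour Mir143, both known from smooth muscle, was at 7.25 and 6.80 against 8.57. Mir181b-1 was at least 2.64-fold lower. Mir125b-1 was lower by fit (-2.32), but its WT MEF level was itself under background. Of 11 let-7 genes 3 were lower and 1 higher: Mirlet7e was at 6.49 and 5.98 against 7.81, Mirlet7a-1 at 7.55 and 7.52 against 8.25, and Mirlet7g was higher by 0.53.

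The brightest miRNA genes in WT iPSC lay inside Sfmbt2, an imprinted Polycomb gene on chromosome 2 that hosts a large miRNA cluster. Mir669k was at 9.80 and 10.09 against 5.07 (at least 11.2-fold higher), Mir669j at 9.96 and 9.85 against 5.73 (at least 10.9-fold) and Mir669i at 8.57 and 8.83 against 4.22 (at least 4.75-fold). The host Sfmbt2 was at 9.63 and 9.34 against 6.64 (7.16-fold). Of 23 genes of this region, host included, 11 were higher and 0 lower. These copies resemble each other, so signal may be shared. In the pair lacking Nanog, which shares no array with this comparison, the difference was 0.94 for Mir669k and 0.05 for Sfmbt2.

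The imprinted region between Dlk1 and Dio3 on chromosome 12, also singled out after its values were seen, ran the other way and divided the 2 iPSC arrays. Of 54 genes measured there 23 were lower and 0 higher, against 15.4% and 17.2% of all genes. Replicate 2 was below replicate 1 at 51, and 28 were more than 2-fold below WT MEF in replicate 2 against 14 in replicate 1. The median level was 6.21 in replicate 1 and 5.45 in replicate 2, under their background yardsticks of 6.44 and 6.37. Many of the counts in this region therefore rank dim signals, and no share over all genes was taken for the counts between arrays. Rian, a long non-coding RNA that carries snoRNAs, was at 9.65 and 6.92 against 10.60, with the WT ESC array at 10.25. AF357355 was at 8.01 and 4.59 against 8.78, and AF357425 at 10.71 and 7.71 against 11.29. Neither Rian (adjusted p = 0.17, limma), AF357355 (0.23) nor AF357425 (0.25) passed. Meg3, a long non-coding RNA of the region, was at 6.72 and 6.71 against 7.23. Both iPSC arrays were below WT MEF at 50 of the 54 genes, with a median difference of -0.61 for replicate 1 and -1.07 for replicate 2, and the WT ESC array was above both at 43. In a list of 27 imprinted genes, 3 were higher and 10 lower; Phlda2 was at 8.08 and 9.74 against 5.22 and Igf2 at 9.06 and 8.74 against 11.33.

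**Figure D5:**
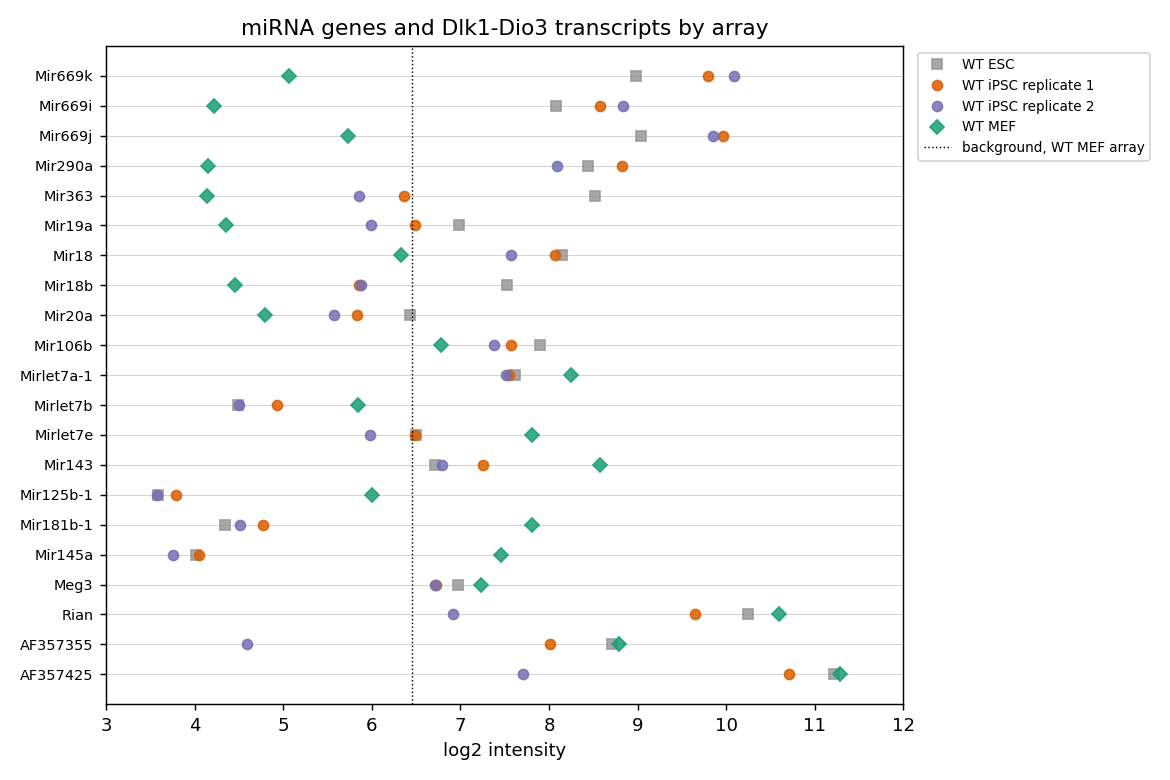
Log2 intensity (x axis) of miRNA genes and of transcripts between Dlk1 and Dio3 (rows) on the WT ESC, WT iPSC and WT MEF arrays, 1 marker per array. The dotted line is the background yardstick of the WT MEF array. The Mir669 genes and Mir290a lie far to the right of the fibroblast array, while Rian, AF357355 and AF357425 are lowest in replicate 2.

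The X chromosome stood above the autosomes. Over 488 X-linked genes above background on at least 1 of the 3 arrays the median difference was 0.25, with 0.31 for replicate 1 and 0.20 for replicate 2, against -0.06 to 0.12 over the 19 autosomes. Of the X-linked genes 36.7% were higher, against 21.9% to 27.9% per autosome. For the WT ESC array against the same WT MEF array the X-linked median was -0.02. Xist, the RNA that coats the silent X, was at 9.65 and 7.96 in WT iPSC, 11.97 in WT MEF and 7.35 in WT ESC (-3.16, adjusted p = 0.021, limma). The Y-linked genes Eif2s3y and Uty were under background on all 3 arrays, at 5.05 and 4.86 in WT MEF. These genes were also chosen after their values were seen.

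Markers of other cell types were read on the same arrays. Of 20 macrophage markers 14 were lower in WT iPSC and 2, Laptm5 and Cd68, were higher. Lyz2 was at 8.22 and 6.78 against 10.42, and Csf1r at 6.43 and 6.38 against 7.95, while Ptprc was under background on all 3 arrays. Their summed linear intensity was 5840 in WT MEF against 4472 and 3946 in WT iPSC, 19 of 20 being above background in WT MEF; their part in the fibroblast differences was not tested. Of 20 primitive endoderm markers 4 were higher and 9 lower, and of 16 trophectoderm markers 4 and 2. Of 17 neural markers 5 were higher and 4 lower, and of 16 endothelial markers 7 and 4. Over all genes 17.2% were higher and 15.4% lower. No list of other cell types was tested against these shares, and some, as for the trophectoderm, lie near them. With only the 3 WT arrays, or without either iPSC replicate lacking Nanog, 3 endothelial markers were higher and 3 muscle markers lower, and without the dimmest genes 9 macrophage markers were lower. Of 19 muscle markers 0 were higher and 5 lower, of 19 markers of cartilage, bone and fat 1 and 8, and of 8 erythroid markers none passed. Olig2, a neural factor, was at 9.51 and 10.59 against 5.93, at least 12.1-fold higher, and at 9.82 on the WT ESC array. Of 18 primed epiblast genes 11 were higher and 1 lower, including Otx2 (8.34 and 8.71 against 5.86) and Lefty1 (9.05 and 8.75 against 6.36).

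The same contrast could be set against the pair lacking Nanog, which has its own arrays. The difference between the 2 contrasts passed for 1897 genes (8.55%), 1215 positive and 682 negative (limma). Leaving out 1 iPSC array moved these counts to between 70 and 2932 positive and between 19 and 2084 negative. Nanog gave 5.22 (SE 0.15, adjusted p = 0.0034). At 556 of the 1897 the 2 MEF arrays were themselves more than 2-fold apart, as they were at 1012 of all 22180 genes. At 643 of the 1897 the 2 iPSC means were more than 2-fold apart. For the iPSC means no count over all genes was taken, so this share has nothing to be set against. Each MEF group is 1 array, so genotype and array cannot be told apart. The 3 Y-linked genes measured had a median level of 8.78 on the MEF array lacking Nanog. It was 4.86 on the WT MEF array, and 4.90 and 5.22 on the iPSC arrays lacking Nanog. The part of this difference in the comparison of the 2 contrasts was not tested.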

How the data were processed

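Values of 7 arrays were taken from the deposited table of intensity values, which the authors made with RMA in Affymetrix Expression Console 1.3.0.187, per the submitters' processing notes. RNA was labelled from 73.5 ng of total RNA per the labels' protocols. The authors deposited linear intensity, so log2 was taken here. RMA already includes background correction and normalization, which compresses the differences of dim genes. The genome build is not given in the sources used here. Of 33649 probe sets, 23521 had 1 gene symbol in the platform annotation, 1814 had several and 8314 were unlisted; only the first kind was used, the brightest probe set standing for a gene, which left 22180 genes (1082 with several). Of these probe sets 23328 matched RefSeq by Entrez number.

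limma 3.58.1 (R 4.3.3, with Python 3.11.15 for tables) was fitted over all 7 arrays in 5 groups, with 2 residual and 3.07 prior degrees of freedom, and p-values were adjusted by Benjamini-Hochberg over all genes. The labels' replicates are biological by name only, so p-values measure the spread between these samples. On simulated data for this comparison (22180 genes) 23 of 67 genes changed by 1 log2, 48 of 67 by 2 and 64 of 66 by 4 were recovered, with 2 false calls. The simulated MEF array was given the spread of the iPSC pairs, and far fewer genes were changed than were called here. It therefore cannot test whether fibroblast cultures vary like the iPSC. The number of arrays limits the precision.

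Genes are named by these rules: the 15 largest called differences in each direction with both iPSC arrays at least 2-fold on that side of WT MEF; in each list the 3 largest calls per direction and any member of the pluripotency, stem cell, junction, mesenchymal and fibroblast lists; the 10 genes furthest apart between the WT iPSC arrays; and the 5 largest differences between the 2 genotypes' contrasts per direction. Genes outside them are illustrations chosen after their values were seen. The comparison, its 43 lists (1180 symbols, 1100 measured) and its rules were chosen with earlier results of these data known. Alternatives covered the samples in the fit, leaving out replicates, normalization, an offset, filters on dim genes, several probe sets per gene and limma's trend and robust settings.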

Additional observations from a re-analysis of the deposited data

Results flagged for a closer look

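The difference of iPSC from MEF, here called the change, was not the same in the WT arrays and those lacking Nanog, by limma's interaction test. The value (WT change minus the change without Nanog) was positive for 1215 genes that passed and negative for 682. Genotype cannot be told apart from the 1 MEF array of each group, and these MEF arrays also differed in Y-linked levels. The 5 largest positive values were 6.85 for Serpina3n, 6.46 for Egfl6, 6.32 for Lgr5, 5.54 for Lum and 5.36 for Igfbp3. In all 5 the MEF array lacking Nanog was bright (11.99 for Serpina3n, 12.08 for Egfl6, 12.38 for Lgr5, 10.60 for Lum, 12.19 for Igfbp3), and the WT MEF array was at 5.85, 6.86, 6.08, 5.09 and 7.87. Lgr5 has 2 probe sets whose WT changes were -0.12 and 0.17.

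The 5 largest negative values were -4.63 for Plaur, -4.53 for Pramel30, -4.15 for P2rx7, -4.07 for Dmgdh and -3.86 for Nckap1l. For the last 4 the iPSC arrays lacking Nanog were the bright ones (9.49 and 9.93 for Pramel30, 12.60 and 12.54 for P2rx7, 9.79 and 9.73 for Dmgdh, 10.59 on both for Nckap1l). Plaur, the urokinase receptor, was at 11.19 in WT MEF and 9.10 in MEF lacking Nanog, and at 11.46 and 11.48 in the iPSC lacking Nanog.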

How the results depend on the processing

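Over 13 alternatives the count of genes higher in WT iPSC ran from 2627 to 4942 (main 3810) and of genes lower from 2451 to 4170 (main 3426), each within 1.5 times the main count. Leaving out 1 replicate moved the interaction counts furthest: from 70 to 2932 positive genes (main 1215) and from 19 to 2084 negative (main 682). The low ends came without a replicate of the iPSC lacking Nanog and the high ends without a WT iPSC replicate, where only the closer pair lacking Nanog is left to set the spread. Of 288 named genes that passed, 250 still passed with only the 3 WT arrays and 258 with limma's trend and robust settings. With the WT ESC array joined 270 passed, and with the offset of 32 it was 273. None changed sign under any alternative. Leaving out either iPSC replicate lacking Nanog repeats the test with the 3 WT arrays, since only the WT pair then sets the spread. Median centring moved the median difference to -0.06 and the share of calls that were higher from 52.7% to 47.0%. The list medians of antigen presentation, cholesterol synthesis and erythroid genes changed sign under at least 1 alternative. No paired analysis was possible because the WT MEF array carries no replicate number, so the groups compared share fewer than 2 numbers. Dim genes have bounds rather than folds, and a single fibroblast array leaves variation between fibroblast cultures unmeasured.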
